A study of Homo sapiens with 6 samples.

Results

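Broad stretches of dimethylated histone H3 lysine 9 (H3K9me2) that were called in KDM3-depleted colorectal cancer cells, and not in their control cells, are described here. They are the regions of the H3K9me2 list of HCT116/ABsh-1 cells that were at least 1000 bp wide and shared no base with any H3K9me2 region of HCT116/Scrsh cells. The rule found 3737 such wide new regions among the 88855 regions of the HCT116/ABsh-1 list, which is 4.21% of it, and among 126184 regions in all 4 lists of the series. They were chosen by their width and by the absence of a control region, so these properties are a description and support nothing.

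HCT116 is an established human colorectal cancer cell line that carries a mutated, stabilized β-catenin. HCT116/Scrsh cells stably expressed a scramble shRNA and HCT116/ABsh-1 cells stably expressed 1 shRNA construct directed at both KDM3A and KDM3B, whereas the deposited labels name the treatment siRNA. Chromatin immunoprecipitation with antibodies against H3K9me2 or KDM3B was followed by sequencing (ChIP-seq), and the series held 6 libraries including 2 inputs. Each antibody was used in 1 library per cell population, so single libraries are set side by side throughout and no test between the populations was possible. The number of cell clones behind each population is not given in the sources used here. How deeply each library was sequenced is unknown, and more reads can give more and wider regions.

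H3K9me2 is a histone mark of repressed chromatin. It is written mainly by the methyltransferases EHMT1 and EHMT2 and removed by demethylases that include the KDM3 family, whose members are KDM3A, KDM3B and JMJD1C. In the Wnt pathway, which drives the growth of most colorectal cancers, β-catenin and Tcf factors switch on target genes such as AXIN2, DKK1, CCND1 and MYC.

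The sequences below are examples of wide new regions, and none of them comes from the 10 regions below 50% GC described further on. Each is the middle 300 bases of a region, on the plus strand of hg19, with every CpG dinucleotide in capitals. The first to the third come from the 3 widest regions, the next from the region in AXIN2, and the last from a region whose GC content of 63.1% was near the median.
MARK4, between NKPD1 and TRAPPC6A, chr19:45665001-45665300: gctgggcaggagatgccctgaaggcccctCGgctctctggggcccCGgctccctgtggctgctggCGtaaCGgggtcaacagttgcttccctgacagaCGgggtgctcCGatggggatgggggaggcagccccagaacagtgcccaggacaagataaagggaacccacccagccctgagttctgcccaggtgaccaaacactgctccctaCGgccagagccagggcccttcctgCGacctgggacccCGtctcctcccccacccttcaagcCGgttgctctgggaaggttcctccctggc
CDH15, chr16:89241351-89241650: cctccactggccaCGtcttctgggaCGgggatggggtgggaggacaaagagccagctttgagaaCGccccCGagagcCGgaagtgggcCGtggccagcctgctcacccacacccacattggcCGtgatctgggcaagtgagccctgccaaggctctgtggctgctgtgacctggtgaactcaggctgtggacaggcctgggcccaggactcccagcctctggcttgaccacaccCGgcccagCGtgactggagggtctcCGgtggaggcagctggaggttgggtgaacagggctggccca
RBFOX3, chr17:77419401-77419700: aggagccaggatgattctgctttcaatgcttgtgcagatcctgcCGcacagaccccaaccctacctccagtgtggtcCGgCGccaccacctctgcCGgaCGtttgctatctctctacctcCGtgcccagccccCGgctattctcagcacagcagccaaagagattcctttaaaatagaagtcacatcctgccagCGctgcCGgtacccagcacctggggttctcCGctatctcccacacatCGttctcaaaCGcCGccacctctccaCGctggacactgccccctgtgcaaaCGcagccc
AXIN2, chr17:63533601-63533900: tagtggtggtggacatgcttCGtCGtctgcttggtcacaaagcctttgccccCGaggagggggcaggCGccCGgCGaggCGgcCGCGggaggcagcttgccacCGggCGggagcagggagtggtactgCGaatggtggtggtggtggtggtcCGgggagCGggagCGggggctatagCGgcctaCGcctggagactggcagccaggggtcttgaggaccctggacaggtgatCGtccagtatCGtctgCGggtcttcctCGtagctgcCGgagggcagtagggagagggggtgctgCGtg
TBC1D16, chr17:77925951-77926250: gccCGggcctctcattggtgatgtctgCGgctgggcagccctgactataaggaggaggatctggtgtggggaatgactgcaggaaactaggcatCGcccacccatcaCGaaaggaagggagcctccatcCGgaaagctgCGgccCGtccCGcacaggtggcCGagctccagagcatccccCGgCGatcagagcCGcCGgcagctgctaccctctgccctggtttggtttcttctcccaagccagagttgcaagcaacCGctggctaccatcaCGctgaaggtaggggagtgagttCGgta
These stretches held 10, 10, 15, 23 and 16 CpGs in that order. The stretch in AXIN2 was the richest of the 5 in CpG, with a GC content of 68.0%. The others had GC contents of 59.3 to 66.3%.

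Nearly all H3K9me2 regions of 1000 bp or more came from the HCT116/ABsh-1 list. That list held 4333 regions of at least 1000 bp, of which 596 overlapped a control region and 86.2% were new. Among its regions of any width, 84881 (95.5%) were new, a higher share than the 86.2% of the wide ones. In HCT116/Scrsh, 2 of 11645 H3K9me2 regions reached 1000 bp and none was wider. The wide new regions covered 5.34 Mb, which was 19.3% of the 27.6 Mb covered by the HCT116/ABsh-1 list. Their median width was 1200 bp, with quartiles of 1100 and 1600 bp. Of them, 480 (12.8%) were at least 2000 bp wide, 102 at least 3000 bp and 10 at least 5000 bp. Because the authors worked in 100-bp windows, 817 of them (21.9%) sat exactly at the limit of 1000 bp, while 1118 new regions of 900 bp fell just outside it. At 1000 bp the median GC content was 62.6% and 46.8% of the regions lay within 5 Mb of a chromosome end, against 62.9% and 48.7% at 900 bp. The values on either side of the limit were close.

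The widest region, at chr19:45661601-45668700, was 7100 bp wide. It ran over exons 1 to 3 of NKPD1 and exons 2 to 6 of TRAPPC6A, which encodes a subunit of a vesicle tethering complex, and it lay in the annotated span of MARK4, a kinase of microtubule-associated proteins. The next widest, at chr16:89238201-89244800, was 6600 bp wide and covered exon 1 and part of intron 1 of CDH15, the cadherin of muscle cells. It also had the highest score of all wide new regions, 1837, where the score is the authors' value for a region and served here only for ranking. The third, at chr17:77416601-77422500, was 5900 bp wide and lay in intron 1 of RBFOX3, which encodes the neuronal nuclear antigen NeuN. The fourth, at chr16:89001501-89007100, was 5600 bp wide and lay in intron 1 of CBFA2T3, a transcriptional corepressor. The fifth, at chr9:140203401-140208900, was 5500 bp wide and reached exon 20 of EXD3. At FOXJ1, the master regulator of motile cilia, a region of 5300 bp at chr17:74130801-74136100 had a score of 1400 and ran over exons 2 and 3. Regions of the HCT116/ABsh-1 list covered 79.1% of the FOXJ1 gene. The nearest control region lay only 0.5 kb from this region of 5300 bp, and the control list had 1 region at FOXJ1.

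Scores rose with width, from 99 to 1837 with a median of 240. The score per 100 bp was more even, with a median of 18.6 and quartiles of 16.3 and 21.7. A single region stood apart from the others on this measure. It lay at chr17:41399801-41401100, was 1300 bp wide with a score of 1374, and had 106 score units per 100 bp, against 44.1 for the next one, in ASPSCR1. It overlapped no protein-coding gene, and it overlapped a KDM3B region in both cell populations.

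Nearly all wide new regions were rich in G and C. Their median GC content was 63.2%, with quartiles of 61.2 and 64.9%, and each of the 3737 lay above the mean of 40.9% of the assembled genome. Only 10 of them had a GC content below 50%, which is 0.268% (Wilson 95% confidence interval 0.145 to 0.492%). Intervals in this text cover counting error alone, and neighbouring regions are not independent. The 81144 narrower new regions, of 100 to 900 bp, had nearly the same median, 62.3%, but spread wider, with 5.76% (5.60 to 5.93%) below 50%. The spread narrowed with width from an SD of 7.87 percentage points in regions of 100 bp to 1.87 in those of 3000 to 7100 bp. A narrower region averages fewer bases, and the part of this in the spread was not tested. In the 596 wide regions that overlapped a control region the median was 62.8%, and 0.168% (0.0296 to 0.944%) lay below 50%. The high GC content was thus shared by wide regions of the HCT116/ABsh-1 list that were not new. In the control list, whose median width was 100 bp, the median was 52.7% and 42.9% of the regions lay below 50%.

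**Figure D1:**
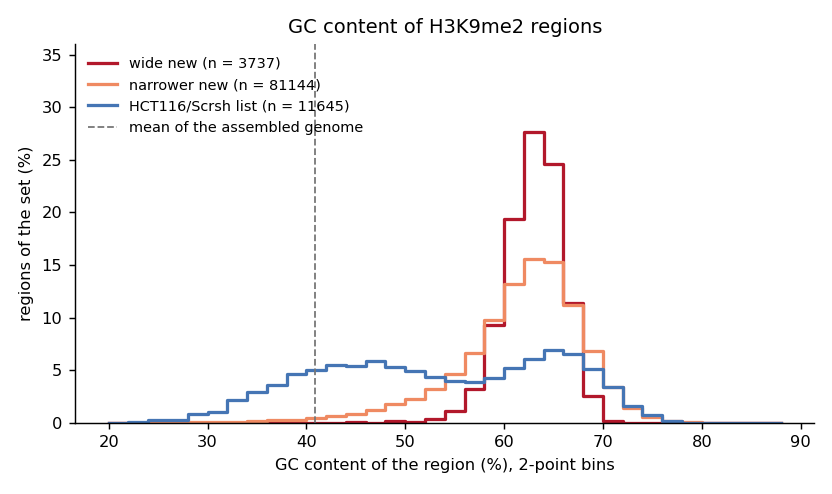
GC content of H3K9me2 regions in percent (horizontal axis, bins of 2 percentage points) against the share of regions in each set (vertical axis, percent). The lines stand for 3737 wide new regions, 81144 narrower new regions and 11645 regions of HCT116/Scrsh, and the dashed line for the genome mean of 40.9%. Both kinds of new region peak near 63%, the wide ones more sharply, while the control list spreads over 30 to 70%.

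Most of the wide new regions did not meet the criteria of a CpG island. CpG islands are stretches, often at promoters, that have kept their CpG dinucleotides, which elsewhere are depleted by deamination of methylated cytosine. The observed CpG number divided by that expected from the base composition had a median of 0.343 in the wide new regions, with quartiles of 0.280 and 0.428. This was above the 0.236 of the whole genome and below the island criterion of 0.6. Over their whole length, 298 wide new regions met the island criteria of at least 50% GC and a ratio of at least 0.6, which is 7.97% (7.15 to 8.89%). The share was 16.1% (15.9 to 16.4%) in narrower new regions and 26.2% (22.8 to 29.8%) in the 596 wide regions that overlapped a control region. The median ratio of narrower new regions was close to that of the wide ones, 0.358, but with wider quartiles of 0.235 and 0.520. A narrower region holds fewer CpGs, and the part of this in the island shares was not tested. A window of 200 bp that met the criteria was found in 1766 wide new regions, or 47.3%. That share was not computed for the other sets, and a wider region offers more windows. Most of the sequence was not made of short repeats. The share of distinct 12-base words in a region had a median of 99.9% and was under 80% in 23 regions.

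The wide new regions were distributed unevenly over the chromosomes. Chromosomes 17, 16, 22, 9 and 19 held 463, 436, 353, 300 and 296 of them, together 49.5% on 12.9% of the assembled genome. Per assembled Mb, chromosome 22 had the highest density, 10.1 regions, followed by chromosome 17 with 5.95, chromosome 16 with 5.53 and chromosome 19 with 5.30. On chromosome 1 lay 295 of them, or 7.89%, and 7.88% of the assembled bases. Chromosome X held 9 and chromosome Y none, although 689 and 122 narrower new regions lay there. Over the 24 chromosomes, the density of wide new regions had a Spearman correlation of 0.965 with that of narrower new regions, of 0.861 with GC content and of 0.791 with the density of protein-coding genes. These are descriptions of points that all come from the same pair of libraries.

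**Figure D2:**
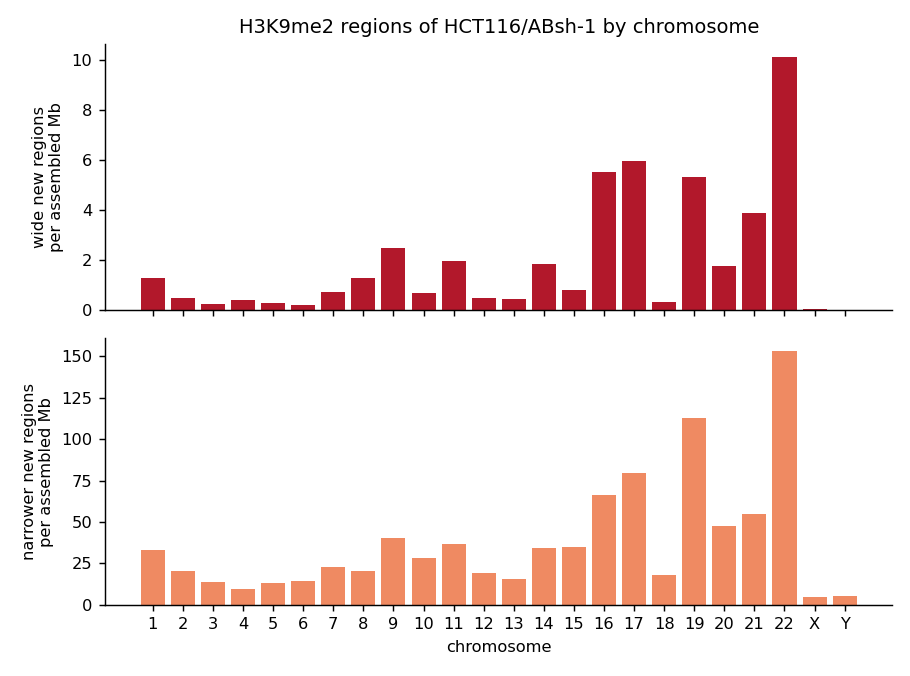
Wide new regions (upper panel) and narrower new regions (lower panel) per assembled Mb of each chromosome, with a bar for each of 24 chromosomes. Chromosome 22 is highest in both panels, with 10.1 wide and 153 narrower new regions per Mb.

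Wide new regions gathered toward the chromosome ends. Within 5 Mb of an end lay 2079 of them, which is 55.6% (54.0 to 57.2%), whereas 7.11% of the assembled genome lies there. The share was 29.3% (28.9 to 29.6%) in narrower new regions, 42.3% (38.4 to 46.3%) in wide regions that overlapped a control region, and 13.2% (12.6 to 13.8%) in the control list. The share also rose with width among all new regions, from 24.7% at 100 bp to 40.3% at 500 to 900 bp, 51.0% at 1000 to 1400 bp, 69.6% at 2000 to 2900 bp and 79.4% at 3000 to 7100 bp. The last 1 Mb held 8.59% of the wide new regions, against 5.78% of narrower new regions and 1.35% of the assembled genome. Chromosomes differed in the share within 5 Mb of an end. On chromosome 21, 130 of 137 regions lay within 5 Mb of an end, and on chromosome 8, 165 of 183. On chromosome 10, 2 of 89 did, and on chromosome 22, 90 of 353.

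**Figure D3:**
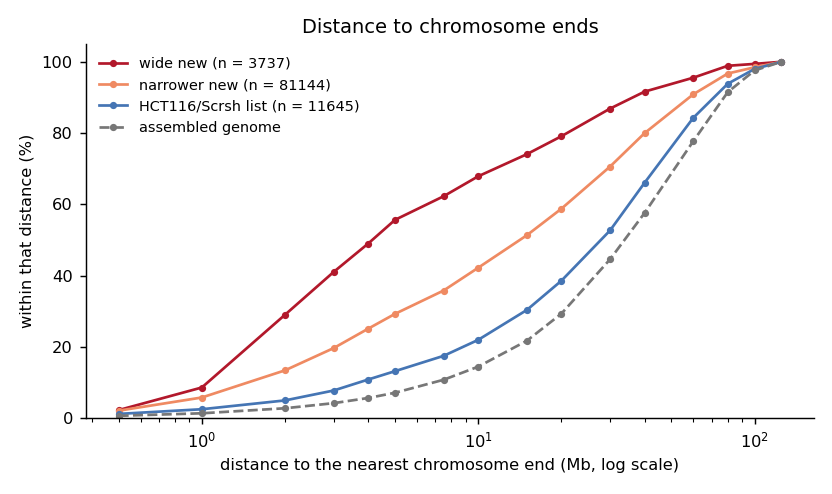
Distance to the nearest chromosome end in Mb (horizontal axis, log scale) against the cumulative share of regions, or of assembled bases, within that distance (vertical axis, percent). At 5 Mb the curve of wide new regions stands at 55.6%, that of narrower new regions at 29.3%, that of the HCT116/Scrsh list at 13.2% and that of the assembled genome at 7.11%.

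Both position and base composition moved with the number of wide new regions. When the genome was divided into 1-Mb bins, 607 of 2869 bins (21.2%) held at least 1 wide new region, and 52 bins with 20 or more held 1878 of them (50.3%). Those 52 bins had a median GC content of 54.2%, against 39.1% in bins without any. Of 120 bins with at least 50% GC, 118 held a wide new region, and of 1403 bins below 40% GC, 39 did. Among the GC-rich bins, the 65 within 5 Mb of an end held 28.6 wide new regions each on average and the 55 farther away held 9.42. Among bins of 45 to 50% GC the averages were 3.43 and 2.46. Among those of 40 to 45% they were 0.393 and 0.327, so the gap between ends and interior was seen mainly in GC-rich bins. Whether end and interior bins of the same class differed in GC content was not tested. Whether the GC content of the sequenced fragments differed between the libraries was not tested, since the lists hold no reads. The bin with the most was chr17:79000001-80000000, with 84 wide new regions that covered 15.4% of its bases. It was followed by chr16:88000001-89000000 with 75 and chr16:85000001-86000000 with 73.

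Wide new regions often lay side by side. The median distance to the next one was 6.4 kb, with quartiles of 1.8 and 32.1 kb, and 2166 of them (58.0%) had another within 10 kb. Joined at that distance, they formed 2231 runs, of which 96 had 5 or more members and held 752 regions in all. The run with the most members, 28 over 138 kb at chr16:88469001-88607000, spanned ZNF469 and ZFPM1, which encodes a cofactor of GATA factors. A run of 25 at chr9:137210501-137311500 lay over RXRA, the retinoid X receptor alpha. A run of 24 at chr16:85451801-85571200 lay in GSE1, which encodes a component of histone deacetylase complexes. Runs of 20 lay at RTN4R, a receptor for myelin proteins, on chromosome 22 and at C1QTNF8 and CACNA1H on chromosome 16. On chromosome 11, a run of 12 at chr11:2154701-2212300 covered the imprinted growth factor gene IGF2, the insulin gene INS and the tyrosine hydroxylase gene TH.

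The DNA around a wide new region also carried many narrower ones. In the 10 kb on either side, regions of the HCT116/ABsh-1 list covered 22.3% of the bases on average, against 9.40% around narrower new regions and 0.966% of the assembled genome. Coverage fell from 27.8% at 0.5 to 1 kb from the edge to 18.1% at 19.5 to 20 kb, so the surroundings stayed covered well beyond the region itself. In the list, no pair of regions lay less than 300 bp apart, so the first 500 bp were left out of the plot of coverage. Regions of the control list covered 0.322% of the flanking 10 kb, against 0.208% around narrower new regions and 0.0590% of the genome. After regions closer than 1 kb had been merged, the widest new stretch was 35.9 kb, at chr16:88523101-88559000 in ZFPM1, of which 61.3% was called.

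**Figure D4:**
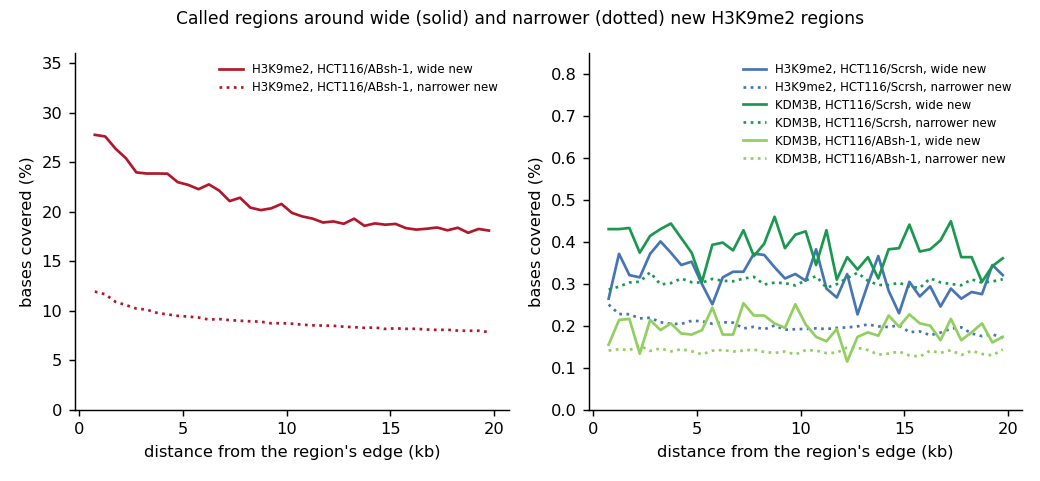
Share of bases covered by each list (vertical axis, percent) against distance from the edge of wide new regions (solid lines) and narrower new regions (dotted lines), in kb and in 500-bp steps from 0.5 to 20 kb. The left panel shows the H3K9me2 list of HCT116/ABsh-1, which falls from 27.8 to 18.1% around wide new regions, and the right panel the other 3 lists on a smaller scale, all below 0.5%.

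New did not always mean far from control signal. The nearest control H3K9me2 region was a median of 29.1 kb away, with quartiles of 9.0 and 84.9 kb. It lay within 1 kb of 85 wide new regions, which is 2.27% (1.84 to 2.80%), and within 10 kb of 1017, which is 27.2% (25.8 to 28.7%). For 810, or 21.7%, it was over 100 kb away. Around narrower new regions the median distance was 47.9 kb.

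Many wide new regions lay in or near genes, and the share near a TSS depended on the annotation used. The centres of 2281 lay within 5 kb of a transcription start site (TSS), which is 61.0% (59.5 to 62.6%), against 53.6% (53.2 to 53.9%) of narrower new regions and 26.9% of the assembled genome. The share was 37.9% when TSSs of protein-coding transcripts alone were used and 23.5% with 1 start per protein-coding gene. The shares of the genome and of narrower new regions were not computed with these fewer starts. The 26.9% of the genome is therefore no comparison for them. By gene feature, 1191 centres (31.9%) lay in introns, 1091 (29.2%) in the 3 kb upstream of a transcript, 666 (17.8%) in the 3 kb downstream of one and 492 (13.2%) in distal intergenic DNA. These classes make up 44.9%, 10.8%, 9.23% and 32.7% of the genome. Coding exons held 134 centres, or 3.59% (3.04 to 4.23%), against 0.477% of the genome and 3.85% of narrower new regions. The share in promoters depends on the annotation. It was 13.2% when only protein-coding transcripts were used. The matching share of the genome was not computed, and the 10.8% above holds for all transcripts. Within the bodies of protein-coding genes lay 2670 centres, which is 71.4% (70.0 to 72.9%), against 66.1% of narrower new regions and 45.6% of the genome. Along these gene bodies from start to end, equal portions held, in order, 19.3%, 17.8%, 16.4%, 20.4% and 26.2% of the centres.

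KDM3B regions, which the rule did not use, rarely overlapped the wide new regions, although they covered more of the flanking DNA than of the genome. In HCT116/Scrsh, 12 of 3737 overlapped a KDM3B region, which is 0.321% (0.184 to 0.560%). Of 81144 narrower new regions 73 did, which is 0.0900% (0.0716 to 0.113%). Per Mb covered the order was reversed, with 2.25 overlaps in wide and 3.64 in narrower new regions. Both measures depend on the width of the regions, and the overlap to be had from width alone was not tested. In HCT116/ABsh-1, 14 of 3737 wide new regions overlapped a KDM3B region. Within 5 kb a KDM3B region of HCT116/Scrsh lay near 678 wide new regions, or 18.1% (16.9 to 19.4%), against 13.5% (13.2 to 13.7%) of narrower ones. The share was 14.4% in wide regions that overlapped a control region and 5.99% in the control H3K9me2 list. In the 10 kb on either side of wide new regions, KDM3B regions of HCT116/Scrsh covered 0.400% of the bases. That coverage was 0.299% around narrower new regions and 0.112% over the assembled genome. The 23 wide new regions that overlapped KDM3B in either population included 3 that did so in both. The region at chr17:41399801-41401100 held a KDM3B region with a score of 261 in the control cells and of 22 in the depleted cells. A region in SPATA20 held KDM3B scores of 22 and 31, and a region at chr2:91815401-91816700 held 165 and 131. For comparison, the median KDM3B score in the HCT116/Scrsh list was 24 and the highest was 6985. In 4 of the 12 overlaps in HCT116/Scrsh the centre lay in a promoter, including those of PTPN21 and CD300A.

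At the level of genes, 1690 of 20163 protein-coding genes (8.38%) held a wide new region in the gene or in the 5 kb upstream of its start. Of these genes, 1067 (63.1%) held 1 region, 100 held 5 or more and 31 held 10 or more. At these genes lay 2908 of the wide new regions (77.8%), and 829 lay at no protein-coding gene. Genes that held a wide new region had a median length of 25.7 kb, against 32.9 kb in genes with narrower new regions alone and 23.02 kb in genes with no new region. They were richer in GC, with a median of 56.1%, against 48.3% in genes with narrower new regions alone and 41.5% in genes with no new region. Among genes below 40% GC, 0.470% (0.313 to 0.704%) held a wide new region, whereas 36.1% (33.6 to 38.8%) of genes of at least 60% GC did, although the median length of the latter was 4.38 kb. A KDM3B region of HCT116/Scrsh lay at 809 of the 1690 genes, which is 47.9% (45.5 to 50.3%). The share was 48.1% (47.1 to 49.2%) of genes with narrower new regions alone and 35.8% (34.8 to 36.7%) of genes with no new region.

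GSE1 held the most, 63 wide new regions over its 507 kb. Their widths ran from 1000 to 4900 bp with a median of 1400 bp, their scores from 134 to 1251 and their GC contents from 55.5 to 66.1%. They were spread over the gene, with 14, 8, 16, 14 and 11 in successive equal portions of its length, and 56 of them lay in introns. None met the CpG island criteria over its whole length. Together with 227 narrower new regions, the HCT116/ABsh-1 list covered 38.3% of the gene. The control list had 9 regions at GSE1. KDM3B regions there numbered 19 in the control cells and 14 in the depleted cells.

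PRDM16, which encodes a PR domain protein of brown fat differentiation, held 27 wide new regions, 18 of them in introns, and RBFOX3 held 24. RXRA held 25 in 123 kb, and the list covered 49.6% of the gene. KCNQ1, a potassium channel gene in an imprinted cluster, held 20, of which 17 lay in introns. MCF2L held 18. ZFPM1 and ADGRB1, an adhesion receptor, held 17 each in genes of 83.8 and 95.6 kb. CBFA2T3 and MEGF6, which encodes a protein of EGF repeats, held 16 each, and the list covered 54.1% of CBFA2T3. These 10 genes were 51.6 to 63.1% GC and lay on chromosomes 1, 8, 9, 11, 13, 16 and 17. At 4 of the 10, namely MCF2L, ZFPM1, RXRA and MEGF6, the control list had no region or 1 region. At the others it had 2 at ADGRB1, 5 each at PRDM16 and RBFOX3, 6 at CBFA2T3, 8 at KCNQ1 and 9 at GSE1.

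Of the targeted genes and their paralogue, KDM3A, KDM3B and JMJD1C, none held a wide new region, and none held a narrower one. Among genes that write the H3K9 marks, 2 of 9 held a wide new region, against 8.38% of all protein-coding genes, namely PRDM16 with 27 and EHMT1 with 1 of 1200 bp upstream of the gene. Among genes that erase them, 2 of 12 did. The writers had a median length of 50.7 kb and the erasers of 88.3 kb, against 27.2 kb for all protein-coding genes. Their median GC contents were 44.2 and 41.7%, against 45.2%. KDM4B, a demethylase of H3K9me3 and H3K9me2, held 13 over its 184 kb, with widths of 1000 to 3100 bp, 11 of them in introns. PHF2 held 1 of 1700 bp.

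Of the 31 Wnt target genes that the study examined, 1 held a wide new region, which is 3.23%, against 8.38% of all protein-coding genes. The 31 genes had a median length of 14.9 kb and a median GC content of 47.5%, against 27.2 kb and 45.2% for all protein-coding genes. The part of length and GC content in this count was not tested. The gene with a wide new region was AXIN2, which encodes a scaffold of the β-catenin destruction complex and is itself switched on by Wnt. The region at chr17:63532901-63534600 was 1700 bp wide, with a score of 459, and ran over exons 5 to 7 of 11. Its GC content was 64.1%, and with 111 CpGs and an observed to expected ratio of 0.636 it met the CpG island criteria, as 7.97% of the wide new regions did. The nearest control region was 36.4 kb away and the nearest KDM3B region of HCT116/Scrsh 4.2 kb away. At AXIN2 as a whole, 4 narrower new regions and no control region were called, and the KDM3B list of HCT116/Scrsh had 5 regions there while that of HCT116/ABsh-1 had none. DKK1, CCND1 and MYC held none that was wide. CCND1 had 2 narrower new regions, MYC had 1 and DKK1 had none. The paper reports higher H3K9me2 at each of these genes after depletion, from its ChIP-seq tracks and from ChIP-qPCR. For the 31 genes as a group, it reports a higher average H3K9me2 signal within 5 kb of the TSS. Counts of called regions do not measure that average. A missing called region does not measure the level of the mark. New regions of any width lay at 21 of the 31 genes (67.7%), against 54.2% of all protein-coding genes. After the merging of regions closer than 1 kb, wide new stretches lay at 6 of the 31 (19.4%), against 4293 of all protein-coding genes (21.3%). The 6 were AXIN2, BIRC5, FGF18, L1CAM, LEF1 and TCF7.

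Gene families were set beside the 8.38% of all protein-coding genes, which had a median length of 27.2 kb and a median GC content of 45.2%. Of calcium channel alpha-1 genes, 6 of 10 held a wide new region, led by CACNA1H with 12, CACNA1I with 10 and CACNA1G with 6, which all encode T-type channels. Their family had a median length of 183 kb and a median GC content of 50.8%. Of collagen genes, 14 of 44 did, with 10 regions at COL18A1. Potassium channel genes were taken by their KCN symbols, which also name associated proteins such as KCNIP3. Of these KCN genes, 17 of 94 held a wide new region, with 20 at KCNQ1 and 11 at KCNT1. The collagen genes had a median length of 145 kb and a median GC content of 45.7%, and the KCN genes of 46.2 kb and 48.8%. All 3 SHANK genes, which encode scaffolds of synapses, and 4 of 7 GRIN genes, which encode glutamate receptor subunits, held at least 1. Their median lengths were 60.5 and 51.3 kb and their median GC contents 56.4 and 52.9%. Of WNT and FZD genes, the ligands and receptors of the Wnt pathway, 3 of 29 did, namely WNT7B with 9, WNT3 with 3 and WNT10B with 1, in a family with medians of 20.7 kb and 52.5% GC. Of HOX genes, with medians of 4.22 kb and 54.4% GC, 6 of 39 held 1 each. Of 23 cadherin genes, with medians of 140 kb and 40.6% GC, CDH15, CDH4 and CDH23 held at least 1. Of ADAMTS genes, with medians of 131 kb and 45.9% GC, 4 of 24 did, and of PRDM genes, with medians of 84.5 kb and 44.1% GC, 4 of 15 did.

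Other families held few. None of 415 olfactory receptor genes held a wide new region, in a family with a median length of 2.08 kb and a median GC content of 41.6%. None of 66 protocadherin genes did, although 43 of them held a new region of some width. The protocadherin genes, many of which overlap one another, had a median length of 108 kb and a median GC content of 45.2%, beside the 145 kb and 45.7% of the collagen genes. Of 515 ZNF genes 16 did (3.11%), with 12 regions at ZNF469, and of 86 ribosomal protein genes 2 did (2.33%). The ZNF genes had medians of 26.3 kb and 43.3% GC, and the ribosomal protein genes of 5.60 kb and 47.3% GC. The parts of gene length and GC content in these counts were not tested.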

How the data were processed

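H3K9me2 and KDM3B were measured by ChIP-seq, in 1 library for each cell population. The authors mapped reads to hg19 with Bowtie, kept uniquely placed reads, let each position count once and tested windows of 100 bp against input by a Poisson model. They deposited 1 list of regions per library, with positions and a score whose meaning is not given in the sources used here. Library depth is unknown, and the 2 inputs were not analysed here. Members and gene lists were chosen with earlier results of these data known.

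Positions were read as deposited by the authors, and a region counted as new when it shared fewer than 1 bp with the control list. The hg19 annotation of GENCODE (release 44) gave the genes. Centres were assigned in the order promoter (3 kb upstream), 3 kb downstream, 5′ UTR, 3′ UTR, coding exon, non-coding exon, intron and distal intergenic. A gene held a region that overlapped its body or the 5 kb upstream. GC and CpG values came from hg19 sequence. The share of repeats was planned but the sequence used carried no repeat mask. Shares have Wilson 95% intervals, and with 1 library per group no test was made. The genes named are the KDM3 genes, AXIN2, DKK1, CCND1, MYC, Wnt target and H3K9 genes that held a region, the 10 genes with most regions and the genes at the 5 widest and the 5 highest-scoring regions. Genes at runs of regions, at KDM3B overlaps, in the families and in the merged list were named after their values were seen. The sequence of the region with the lowest GC content, chosen by the same rule, is not reported here. Measures were tested on simulated data. Python 3.11.15, numpy 2.4.6, pandas 2.3.3, scipy 1.17.1 and matplotlib 3.10.9 were used. Alternatives were other width limits, merging, a wider gap to control regions, the higher-scoring regions, other TSS, promoter and gene definitions and the other KDM3B list.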

Additional observations from a re-analysis of the deposited data

How the results depend on the processing

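No paired analysis was possible because each group had 1 library. Of 53 alternative values, 29 stayed within 1.5 times the main count, within the 95% interval of the main share or within 1 SD of GC content, and 24 did not. The median GC content ran from 60.3 to 63.6% over its 6 alternatives. A width limit of 1500 bp gave 1190 regions, 717 genes, 63.8% near a TSS and 30.8% in promoters. Merging regions less than 1 kb apart gave 11286 wide new regions, 4293 genes, 6 Wnt target genes, 58.8% near a TSS, 27.7% in promoters and 1.10% overlapping KDM3B. Regions with a score at or above the median numbered 1880, at 984 genes, with 63.8% near a TSS and 31.2% in promoters. The share near a TSS was 41.3% with a window of 2 kb, 37.9% with protein-coding transcripts and 23.5% with 1 start per gene. The promoter share was 49.9% with 3 kb on both sides and 13.2% with protein-coding transcripts. Within 1 kb of a KDM3B region lay 4.58%. An alternative chosen after seeing the data left out the 5 Mb at chromosome ends, which left 1658 regions at 998 genes, with 64.1% near a TSS and 30.9% in promoters. The numbers of regions and genes fell where fewer regions were kept. A narrower TSS window or fewer starts and transcripts can only lower the shares near a TSS and in promoters. Wider promoters and a wider KDM3B window can only raise the shares. The direction of those changes was therefore fixed by the definitions, and the cause of the remaining ones was not tested.

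The lists hold no reads and 1 library per group, so a deeper library, a difference in fragment GC content and a biological difference cannot be told apart as sources of the number and width of new regions.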
